A study of Mus musculus with 26 samples.

Results

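Interferon-stimulated genes were followed across 26 immortalized clonal mouse adipose cell lines, 23 from the inguinal fat depot and 3 from the interscapular depot. The group was a list of 41 genes chosen by name as known targets of interferon, of which 39 were measured and are called members below, out of 18193 named genes on the array. All 39 passed the filter on low values, as did 12741 genes in all. Each clone, of background strain 129SVE, was fully differentiated, treated with forskolin for 4 h and measured on 1 whole-genome Affymetrix mouse array. Forskolin activates adenylyl cyclase, and every clone of both depots received it. The dose is 10 micromolar in the series text but 10 millimolar in the sample protocols. The interscapular clones are named BAT1, BAT6 and BAT8, and the labels give no grouping of the inguinal clones. With 1 array per clone there were no repeat cultures, so the spread below is the spread among clones and each clone is 1 selected line. Of the remaining list genes, the probe set of Isg15 also carries a second gene name and was not used, and no value is given here for Ifi44.

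Interferons are secreted proteins released by cells that sense viral or other foreign nucleic acid. They bind receptors on the cell surface, and receptor-bound kinases then activate transcription factors that enter the nucleus. Type I interferon acts mainly through a complex that includes Stat2 and Irf9 and binds the interferon-stimulated response element, whereas genes induced by interferon gamma often carry the gamma-activated site. The induced genes include sensors of nucleic acid, enzymes that degrade RNA or halt translation, and GTPases that attack the compartments of pathogens. Many cells hold a low level of these genes without infection.

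Values are log2(intensity + 16), so a difference of 1 is a 2-fold change in bright genes and understates the change in dim ones. Array medians lay between 5.82 and 5.95 on this scale. The adipocyte markers Adipoq, Fabp4 and Lpl were above the array median on all 26 arrays. The mean of 14 measured adipocyte markers was 7.60, 9.97 and 11.39 in the lowest, median and highest inguinal clone. It was 11.40 in BAT1, 10.96 in BAT6 and 10.16 in BAT8. Ucp1, which uncouples respiration in thermogenic fat cells, was 7.01 in BAT1, 6.37 in BAT6 and 6.19 in BAT8, inside the inguinal range of 4.66 to 7.55. Of 16 leukocyte markers on the array, 8 lay below the array median everywhere, among them Ptprc, Itgam and C1qa. Another 7 passed the low-value filter, and of these Cd68, Adgre1, Csf1r and Cd14 were above the array median on all 26 arrays. BAT6 stood apart in 1 of 2 controls of RNA quality, with a log2 ratio of 3′ to 5′ Gapdh signal of 4.51. That ratio was -0.13 in BAT1, -0.15 in BAT8, -0.02 in the median inguinal clone and 1.61 in the highest, F4. The same ratio for actin was 1.15 in BAT6, only just above the inguinal range of 0.24 to 0.99. For actin it was 0.66 in BAT1 and 0.43 in BAT8. Depot differences that passed are therefore given with and without BAT6.

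The members lay far apart in the interscapular clones. Averaged over the 39 members, inguinal clones stood at 9.82 ± 0.36 (SD, n = 23), from 9.17 in X3 to 10.79 in A3. BAT6 stood at 7.60 and BAT8 at 8.91, the lowest and second lowest of the 26 clones. BAT1 stood at 10.03, rank 21 of 26 counted from the lowest, inside the inguinal range. The median member differed from its inguinal mean by 0.28 in BAT1, -2.36 in BAT6 and -0.88 in BAT8. Over all genes tested these medians were -0.0004, -0.06 and 0.02.

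**Figure D1:**
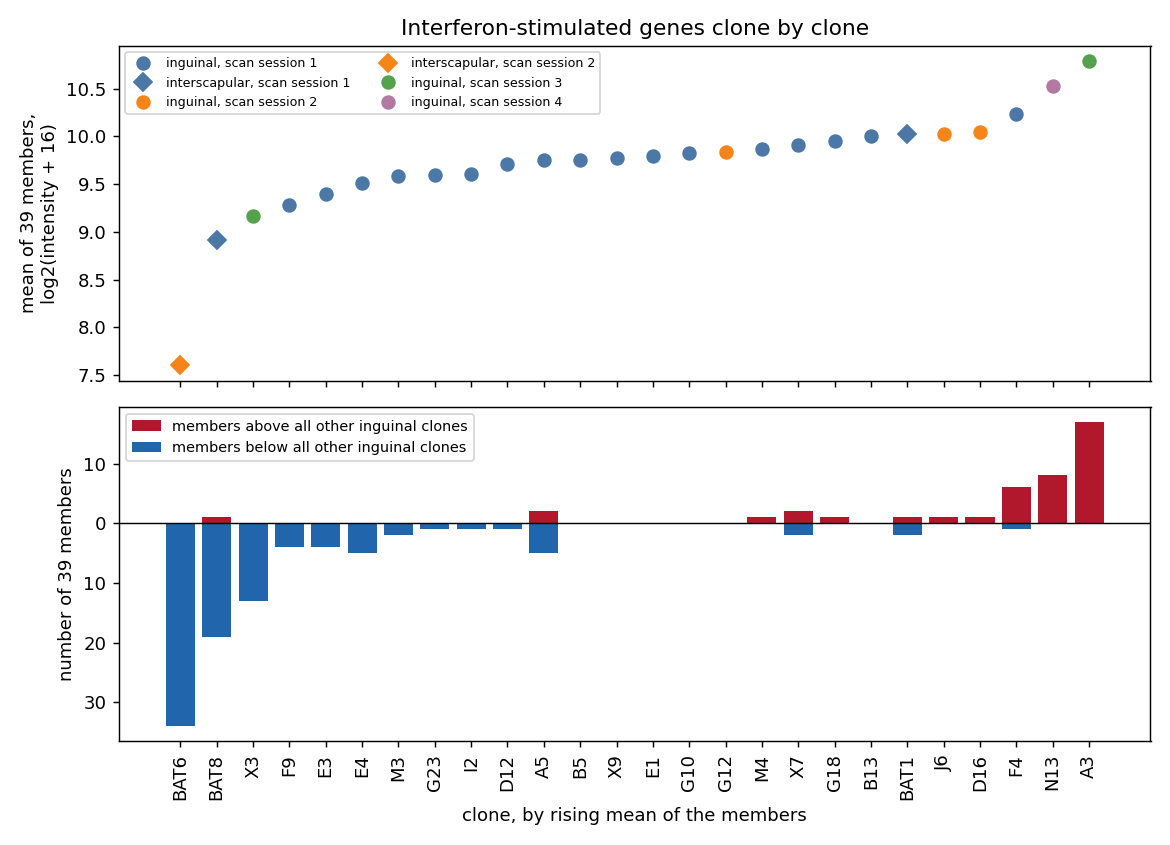
Upper panel: mean log2(intensity + 16) of the 39 members in each of 26 clones (1 array each), circles for inguinal and diamonds for interscapular clones, coloured by scan session. Lower panel: for each clone, the number of members above (upward bars) or below (downward bars) every inguinal clone, or every other inguinal clone where the clone is itself inguinal. BAT6 has 34 members below the inguinal range and BAT8 has 19, while BAT1 has 2.

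Counted gene by gene, 34 of 39 members in BAT6 lay below all 23 inguinal clones, where 11% of all genes did, and 0 lay above them, where 7.75% did. In BAT8, 19 members lay below the range against 7.65% of all genes, and 1 lay above it against 9.53%. In BAT1, 2 members lay below the range against 7.35% of all genes, and 1, Gbp2, lay above it against 8.19%. The 19 members below the range in BAT8 were below it in BAT6 too, a pattern seen in 3.29% of all genes. In 36 of 39 members BAT6 was lowest, BAT8 intermediate and BAT1 highest of the 3 clones, an order held by 18.4% of all genes. BAT1 exceeded the inguinal mean in 30 of 39 members, where the median difference of all genes from their inguinal mean in BAT1 was -0.0004. A single clone has no replicate check, so these counts are descriptions. Clone F4, with the highest inguinal Gapdh ratio, had a member mean of 10.23, and the part of RNA quality in the BAT6 values was not tested. The same scan session as BAT6 held the inguinal clones D16, G12 and J6, whose member means lay between 9.84 and 10.05.

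**Figure D2:**
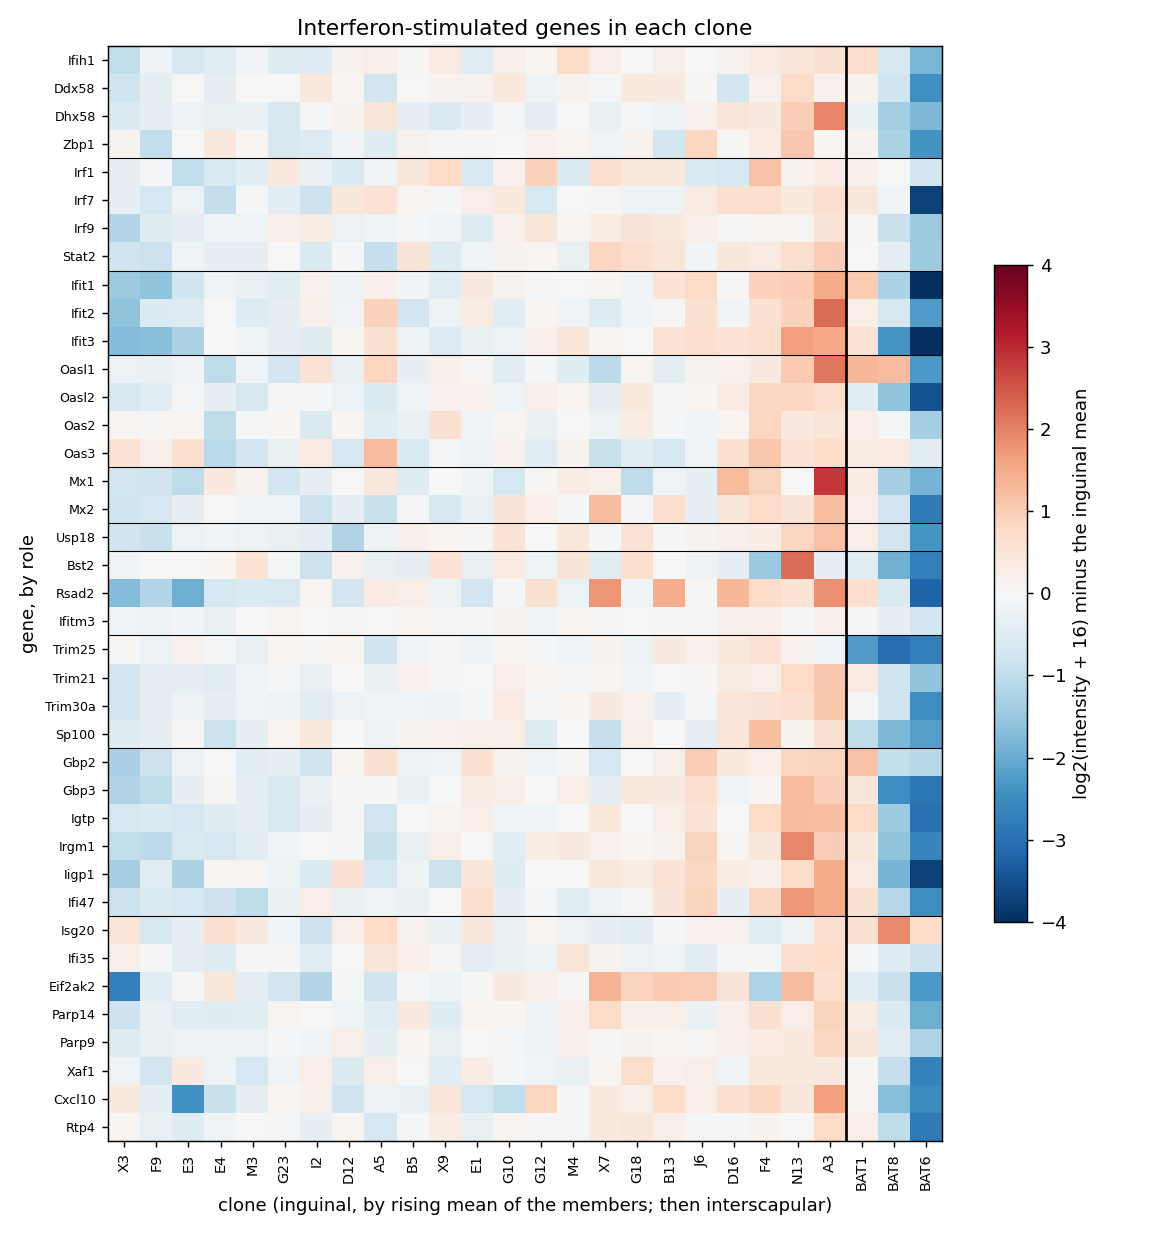
Heat map of the 39 members (rows, grouped by role and parted by thin lines) in 26 clones (columns). Colour is log2(intensity + 16) minus the gene's mean over the 23 inguinal clones, blue for lower and red for higher, drawn to -4 and 4. The column of BAT6 is blue in all rows but Isg20, and the column of BAT1 is blue mainly at Trim25 and Sp100.

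The promoters of the members were read from RefSeq (GRCm38.p6) as windows of 250 bases before to 50 bases after the start of transcription. By symbol, 31 of the 41 list genes had at least 1 window. The response element core was searched as GAAA followed by any 2 bases and again GAAA, and the gamma-activated site as TTCNNNGAA, each on both strands. The first was found in 18 of 31 genes (58.1%), against 3.99% of 27025 genes with a window. The second was found in 8 of 31 (25.8%), against 9.55%. Both lay in the same window in 4 genes, and in 2 genes they shared bases. Among measured members with a window, 5 of 10 that passed the depot test described below held the response element core, as did 12 of 19 that did not pass. The median difference from the inguinal mean in BAT6 was -2.48 for the 17 measured members with the motif and -2.27 for the 12 without. In BAT8 the medians were -0.90 and -0.76, and in BAT1 0.32 and 0.14. A match is a description of letters in the reference strain, and the clones are of another strain.

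The windows below show 4 promoters with the response element core, from the members holding it that passed the depot test with the largest differences, and Trim25, which passed with the largest difference of all and has no match. Capitals mark the matched bases, read in the direction of transcription, and TTTC, any 2 bases and TTTC is the same motif on the other strand. Ifit3 lies at chr19:34583279-34583578 (plus strand), with matches starting at -156 and -122 from the start of transcription. Bst2 lies at chr8:71537423-71537722 (minus strand) with overlapping matches at -130 and -124. Gbp3 lies at chr3:142559794-142560093 (plus strand), also with an overlapping pair, at -45 and -39. Trim30a lies at chr7:104465144-104465443 (minus strand) with 1 match at -36, and Trim25 at chr11:88999153-88999452 (plus strand).
Ifit3: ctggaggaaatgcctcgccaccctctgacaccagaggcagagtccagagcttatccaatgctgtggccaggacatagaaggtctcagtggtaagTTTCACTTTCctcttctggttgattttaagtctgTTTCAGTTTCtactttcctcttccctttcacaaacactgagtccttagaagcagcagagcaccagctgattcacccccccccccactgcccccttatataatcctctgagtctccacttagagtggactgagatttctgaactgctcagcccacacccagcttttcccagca
Bst2: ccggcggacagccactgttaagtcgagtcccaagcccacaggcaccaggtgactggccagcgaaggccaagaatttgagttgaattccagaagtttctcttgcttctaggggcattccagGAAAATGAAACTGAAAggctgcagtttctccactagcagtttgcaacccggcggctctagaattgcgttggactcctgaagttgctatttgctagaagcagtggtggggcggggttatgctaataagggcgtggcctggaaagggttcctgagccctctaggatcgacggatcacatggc
Gbp3: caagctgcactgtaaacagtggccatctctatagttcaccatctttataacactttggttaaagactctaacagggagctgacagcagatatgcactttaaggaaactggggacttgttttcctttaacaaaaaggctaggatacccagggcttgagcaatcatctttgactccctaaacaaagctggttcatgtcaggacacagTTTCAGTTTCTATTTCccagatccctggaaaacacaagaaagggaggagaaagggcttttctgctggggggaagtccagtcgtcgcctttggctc
Trim30a: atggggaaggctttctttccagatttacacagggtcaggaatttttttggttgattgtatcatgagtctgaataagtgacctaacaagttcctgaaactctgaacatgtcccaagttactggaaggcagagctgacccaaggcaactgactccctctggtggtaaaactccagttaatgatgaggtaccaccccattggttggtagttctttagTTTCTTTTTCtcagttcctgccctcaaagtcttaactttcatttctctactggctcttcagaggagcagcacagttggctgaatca
Trim25: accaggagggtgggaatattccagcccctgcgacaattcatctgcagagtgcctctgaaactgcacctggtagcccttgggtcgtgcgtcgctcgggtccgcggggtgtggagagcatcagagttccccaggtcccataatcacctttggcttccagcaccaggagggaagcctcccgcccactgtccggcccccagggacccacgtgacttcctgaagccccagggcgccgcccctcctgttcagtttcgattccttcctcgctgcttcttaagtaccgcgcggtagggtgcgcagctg

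The depots were compared over all 26 clones with limma, which fits every gene and shares information on its spread. In this test 13 of 39 members were lower in interscapular clones, where 5.64% of all genes were, and 1 was higher, where 4.55% were (Benjamini-Hochberg adjusted p under 0.05 over 12741 genes). The median difference, interscapular minus inguinal, was -1.04 over the members and -0.02 over all genes. The count of lower members fell most when BAT6 was left out, and fell without BAT8 too. Without BAT6 it was 2, Trim25 and Sp100, where 1.87% of all genes were lower. Without BAT8 it was 6 (3.28% of all genes), Trim25, Sp100, Oasl2, Rtp4, Trim30a and Xaf1, so the other called members lost their call. Without BAT1 it was 27 (3.71%), which included all 13. Within the session that held BAT6, 25 members were lower in that clone than in the 3 inguinal clones beside it (1.04% of all genes). This comparison has 1 interscapular array, so it rests on the spread of the inguinal clones alone. Within the session that held BAT1 and BAT8, 2 members were lower, again Trim25 and Sp100 (2.43% of all genes), and 2 were higher, Isg20 and Oasl1 (1.88%).

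The interscapular clones differed from each other more than the inguinal clones did in 37 of 39 members, as in 37.8% of all genes. The median member had an SD of 1.26 among the 3 interscapular clones. Limma assumes 1 spread for both groups. An exact permutation test of the difference of means was run beside it, over all 2600 ways to choose 3 of the 26 clones. It drops the assumed shape of the values but also treats all clones as interchangeable. It therefore does not correct for the wider interscapular spread. With the same adjustment it called 4 members lower, Trim25, Sp100, Oasl2 and Bst2 (4.58% of all genes). The test called 1 member higher, Isg20, where it called 503 of 12741 genes higher. Its smallest possible p is 0.000385. In 2 members, Trim25 and Sp100, all 3 interscapular clones lay below all 23 inguinal clones, as in 1.39% of all genes.

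**Figure D3:**
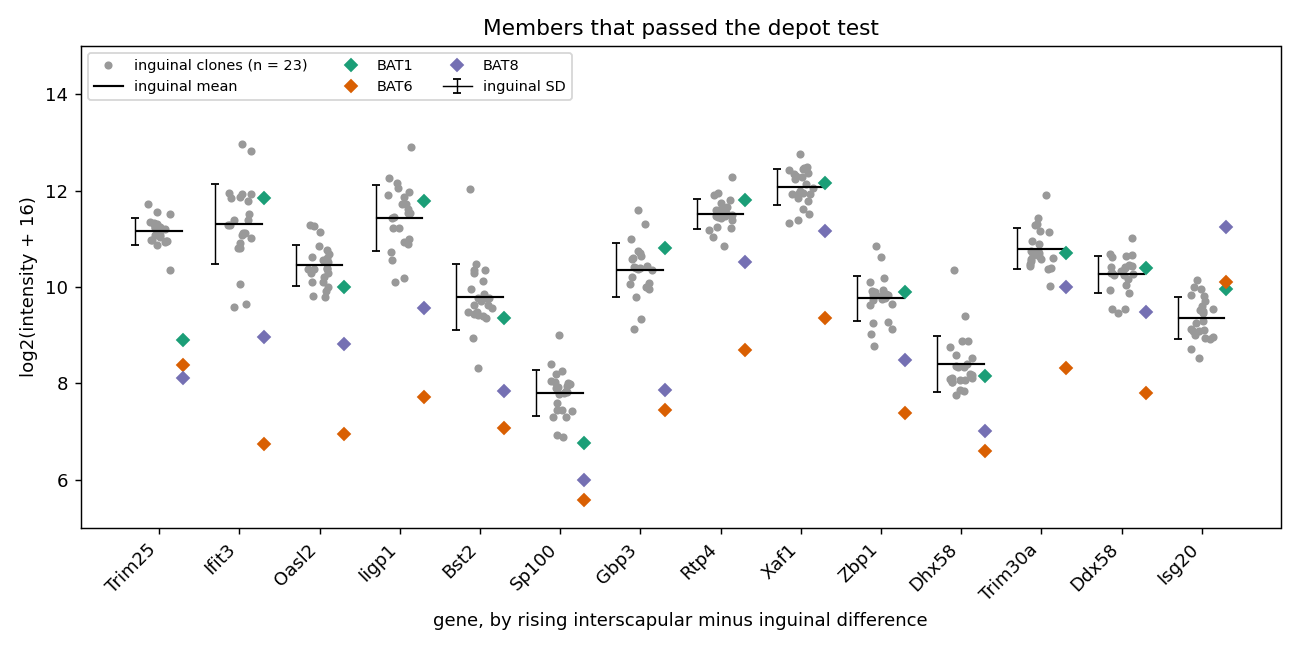
Values of the 14 members that passed the depot test, as log2(intensity + 16), ordered by the interscapular minus inguinal difference. Grey circles are the 23 inguinal clones, black lines their mean and SD, and diamonds the 3 interscapular clones. All 3 diamonds sit below the circles in Trim25 and Sp100 alone, while BAT1 sits among the circles in the other 12 genes shown.

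Among the TRIM and nuclear body proteins, 3 of 4 members were lower in interscapular clones. Trim25, a ubiquitin ligase that activates the RNA sensor encoded by Ddx58, was 8.90 in BAT1, 8.39 in BAT6 and 8.10 in BAT8. The inguinal clones ran from 10.36 through a median of 11.20 to 11.73. The depots did not overlap, and the gap between BAT1 and the lowest inguinal clone was wider than the whole range of the interscapular clones. The difference was -2.69 ± 0.18 (SE; limma adjusted p = 1.59e-11, exact p = 0.000385, lower in 3 of 3 clones), and -2.66 without BAT6 (adjusted p = 3.8e-09). Its dimmer probe sets gave -2.59 and -2.37. Sp100, a scaffold of nuclear bodies that restrict viral DNA, was 6.77 in BAT1, 5.58 in BAT6 and 5.99 in BAT8. Its inguinal values ran from 6.89 to 9.01 with a median of 7.85, and BAT1 sat just under the lowest of them. The difference was -1.68 ± 0.29 (SE, adjusted p = 0.000291), and -1.42 without BAT6 (adjusted p = 0.0147). BAT6 lay below its array median for Sp100, so the size of the fall is approximate, and Sp100 has near-identical repeats in the mouse genome that its probes may share.

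Trim30a, a mouse regulator of inflammatory signalling, was 10.70 in BAT1, 8.32 in BAT6 and 9.99 in BAT8, against 10.02 to 11.91 in inguinal clones (median 10.70). BAT1 lay at the inguinal median while BAT8 sat just under the lowest inguinal clone. The difference of -1.12 passed (adjusted p = 0.0191), but without BAT6 it was -0.45 and did not (adjusted p = 0.456). Near copies of this gene could share its probes. Trim21, a cytosolic antibody receptor and ubiquitin ligase, differed by -0.70 and did not pass (adjusted p = 0.106). BAT6 and BAT8 lay below the inguinal range for it and BAT1 was exceeded by 2 inguinal clones.

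Of the 4 sensors of foreign nucleic acid, 3 were lower. Ddx58, which encodes the RNA sensor RIG-I, was 10.39 in BAT1, 7.79 in BAT6 and 9.474 in BAT8, with inguinal values from 9.465 to 11.02 (median 10.29). Only BAT6 fell outside that range. The difference was -1.04 (adjusted p = 0.0297), but without BAT6 it was -0.33 and did not pass (adjusted p = 0.589). Dimmer probe sets gave 0.16 and -0.67 over all clones. Dhx58, a helicase that tunes RNA sensing, was 8.15 in BAT1, 6.60 in BAT6 and 7.01 in BAT8 against 7.76 to 10.35 (median 8.20). Zbp1, a sensor that can trigger cell death, was 9.90, 7.38 and 8.49 in the same order of clones against 8.78 to 10.86 (median 9.82). Both genes were below the inguinal range in BAT6 and BAT8 and inside it in BAT1, with differences of -1.14 (adjusted p = 0.0322) and -1.17 (adjusted p = 0.0227). Without BAT6 these were -0.82 (adjusted p = 0.291) and -0.57 (adjusted p = 0.413), and neither passed. Ifih1, the sensor of long double-stranded RNA, differed by -0.59 and did not pass, with BAT1 exceeded by 1 inguinal clone and BAT6 below the range.

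In the IFIT family, whose proteins bind foreign RNA and block its translation, 1 of 3 members passed. Ifit3 was 11.85 in BAT1, 6.75 in BAT6 and 8.95 in BAT8. Its inguinal values ran from 9.58 to 12.96 with a median of 11.29. BAT1 was above the inguinal median, while BAT6 and BAT8 were below all inguinal clones. The difference was -2.12 ± 0.62 (SE, adjusted p = 0.026), and the SD was 2.56 among interscapular and 0.83 among inguinal clones. Without BAT6 the difference was -0.91 and did not pass (adjusted p = 0.472). Ifit1 spread as widely, at 12.21 in BAT1, 6.96 in BAT6 and 9.93 in BAT8 against 9.59 to 12.67 (median 11.22), and its difference of -1.50 did not pass (adjusted p = 0.0975). Ifit2, one of the most variable members among inguinal clones (SD 0.75), was 8.81, 6.28 and 7.90 in the same order against 6.92 to 10.76 (median 8.41). BAT6 alone lay below its range. Ifit3 has a near-identical copy in the mouse genome that its probes may share.

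The OAS family encodes synthetases whose product activates an RNA-degrading enzyme, and related proteins. Oasl2 was 10.00 in BAT1, 6.95 in BAT6 and 8.83 in BAT8, with inguinal values from 9.80 to 11.28 (median 10.38). It was the sole family member to pass (-1.86 ± 0.35 SE, adjusted p = 0.000901, exact adjusted p = 0.0325). Without BAT6 its difference was -1.04 and missed the threshold (adjusted p = 0.0639). BAT1, in the low part of the inguinal range, was above 4 inguinal clones. Oasl1, which in mouse restrains translation of Irf7, was 9.35 in BAT1, 5.73 in BAT6 and 9.25 in BAT8, against 6.98 to 10.13 in inguinal clones. BAT1 and BAT8 were each above 22 of the 23 inguinal clones, and BAT6 was below them all and below its array median. Within the session of BAT1 and BAT8, Oasl1 passed as higher, together with Isg20. In the session of BAT6 the direction was opposite, at 5.73 in BAT6 against 7.93 to 8.20 in D16, G12 and J6. Oas2 differed by -0.37 and Oas3 by 0.07, with neither passing, and Oas3 was below the array median in 7 inguinal clones.

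Neither Mx GTPase, proteins that trap viral particles, passed the test, though 1 had an unadjusted limma p under 0.05 and the exact test called 0. Mx1 was 7.09 in BAT1, 4.96 in BAT6 and 5.48 in BAT8, against 5.77 to 9.62 (median 6.80). The highest value belonged to A3, and BAT6 and BAT8 were below their array medians, so this difference of -0.96 is approximate. Mx2 was 8.85, 5.75 and 7.81 in the same order against 7.68 to 9.80 (median 8.50). BAT6 alone left its range and was below its array median. In the ISG15 pathway, Usp18, a protease that removes ISG15 and dampens the interferon receptor, was 11.32 in BAT1, 8.69 in BAT6 and 10.31 in BAT8 against 9.85 to 12.21 (median 11.03). Its difference of -0.94 did not pass (adjusted p = 0.105).

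Of 3 members that act at membranes, 1 passed. Bst2, also called tetherin, which holds budding virus at the cell surface, was 9.35 in BAT1, 7.06 in BAT6 and 7.85 in BAT8. Inguinal clones ran from 8.31 to 12.03 (median 9.71), and BAT1 was above 2 of them. The difference was -1.70 ± 0.42 (SE, adjusted p = 0.00964, exact adjusted p = 0.0258). Without BAT6 it was -1.19 and did not pass in limma (adjusted p = 0.183). Rsad2, or viperin, an enzyme that makes a chain-terminating nucleotide, was 9.95, 6.07 and 8.70 in the order BAT1, BAT6, BAT8. It varied most of all members among inguinal clones (SD 1.01), from 7.32 to 11.07 with a median of 9.18, and its difference of -1.02 did not pass (adjusted p = 0.324). Ifitm3, which blocks virus entry, varied least among inguinal clones (SD 0.13), from 13.73 to 14.25 (mean 14.02). It was 14.07 in BAT1, 13.25 in BAT6 and 13.70 in BAT8, the last 2 below the inguinal range, and its difference of -0.35 did not pass (adjusted p = 0.0721).

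In the GTPases induced by interferon gamma BAT1 stood above BAT6 and BAT8, as it did in most members of the other roles. In BAT6 5 of 6 members lay below all inguinal clones (11% of all genes), and in BAT8 the same number (7.65%). In BAT1 0 did, where 7.35% of all genes did. Iigp1, a GTPase that disrupts parasite vacuoles, was 11.77 in BAT1, 7.71 in BAT6 and 9.57 in BAT8 against 10.10 to 12.91 (median 11.53). Its difference was -1.75 ± 0.50 (SE, adjusted p = 0.0234). Gbp3, a guanylate-binding protein, was 10.80, 7.45 and 7.86 in the same order against 9.13 to 11.61 (median 10.39), with a difference of -1.65 ± 0.43 (SE, adjusted p = 0.0136). For both genes BAT1 was above the inguinal median and the other clones were below the whole inguinal range. Without BAT6 the differences were -0.76 (adjusted p = 0.452) and -1.02 (adjusted p = 0.259), and neither passed.

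The immunity-related GTPases Igtp (-1.22), Irgm1 (-1.26) and Ifi47 (-1.01) did not pass, with adjusted p-values of 0.074, 0.0722 and 0.173. Each was below the inguinal range in BAT6 and BAT8 and in BAT1 exceeded at least 18 of 23 inguinal clones. Gbp2 was 10.38 in BAT1, above the highest inguinal clone at 10.21, and 8.07 in BAT6 and 8.21 in BAT8, each above 1 inguinal clone. Its difference of -0.31 did not pass. The guanylate-binding proteins are close relatives, and probes of one may take transcripts of another.

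Of the 4 transcription factors 0 passed in limma or in the exact test, and 2 had an unadjusted limma p under 0.05. Irf7, the factor that amplifies type I interferon production, was 12.24 in BAT1, 8.06 in BAT6 and 11.67 in BAT8, with inguinal values from 10.85 to 12.48 (median 11.79). BAT1 and BAT8 were inside the inguinal range and BAT6 far below it. The difference was -1.13 with an adjusted p of 0.116. Irf9 (-0.76, adjusted p = 0.0572) and Stat2 (-0.61, adjusted p = 0.247), partners in the complex that type I interferon activates, were below the range in BAT6 alone. Irf1, a factor induced by interferon gamma, was inside the range in all 3 interscapular clones and differed by -0.17.

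Among the other effectors, 2 of 8 measured members were lower and 1 was higher. Isg20, an exonuclease of single-stranded RNA, was 9.95 in BAT1, 10.10 in BAT6 and 11.25 in BAT8. Inguinal clones ran from 8.53 to 10.15 with a median of 9.30, so BAT8 alone was outside the range and BAT1 and BAT6 were above 20 and 22 inguinal clones. The difference was 1.08 ± 0.27 (SE; limma adjusted p = 0.0101, exact adjusted p = 0.0388), and leaving out BAT8 ended the call (adjusted p = 0.185), while without BAT6 the difference was 1.24 (adjusted p = 0.0297). Isg20 was the one member higher than the inguinal mean in BAT6.

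Rtp4, a membrane protein chaperone with antiviral action, was 11.80 in BAT1, 8.69 in BAT6 and 10.51 in BAT8 against 10.86 to 12.29 (median 11.50). Xaf1, a partner of the apoptosis inhibitor XIAP, was 12.15, 9.35 and 11.15 in the same order against 11.33 to 12.76 (median 12.05). In both genes BAT1 was above the inguinal median and BAT6 and BAT8 were below every inguinal clone. The differences were -1.19 (adjusted p = 0.0144) and -1.18 (adjusted p = 0.0156). Without BAT6 they were -0.37 (adjusted p = 0.478) and -0.42 (adjusted p = 0.46), and neither passed. Cxcl10, a chemokine for T cells, was 11.24 in BAT1, 8.57 in BAT6 and 9.43 in BAT8 against 8.66 to 12.76 (median 11.31), and its difference of -1.37 did not pass (adjusted p = 0.0838). BAT6 alone was below its range. Eif2ak2, the kinase PKR that halts translation on sensing RNA, was 8.48, 6.59 and 8.01 in the same order against 6.17 to 10.27 (median 8.94). All 3 were inside its wide inguinal range, though BAT6 was above only 1 inguinal clone, X3. The Eif2ak2 difference of -1.21 did not pass (adjusted p = 0.151). Ifi35, Parp14 and Parp9, whose last 2 encode ADP-ribosyltransferases, differed by -0.46, -0.73 and -0.40 and did not pass. Each was below the range in BAT6, and Ifi35 in BAT8 too.

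Among inguinal clones the members varied more than most genes, with a median SD of 0.55 against 0.32 over all genes. Their median level was also higher, 9.54 against 8.25, and 37 of 39 were at or above the array median in every inguinal clone. The largest SDs were those of Rsad2 (1.01), Eif2ak2 (0.94), Mx1 (0.84), Ifit3 (0.83), Cxcl10 (0.83) and Ifit2 (0.75). A3 was the highest inguinal clone in 17 members, where it was highest in 7.97% of all genes. N13 was highest in 8 members (6.21% of all genes) and F4 in 6 (3.61%). X3 was lowest in 13 members, where it was lowest in 14.9% of all genes. A3 and X3 shared a scan session and sat at opposite ends of the members' range. A3 and N13 were scanned in sessions with no interscapular array.

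Over the 23 inguinal clones most pairs of members had a positive correlation. The median Pearson r over 741 pairs of members was 0.43, and 92.6% of pairs were above 0. The same values were not computed for pairs of all genes, so these have no background beside them. With the mean of the other members, r was 0.93 for Trim21 and 0.91 for Igtp. It was 0.26 for Trim25 and 0.52 for Sp100, the members below the inguinal range in all 3 interscapular clones. It was 0.09 for Bst2 and 0.01 for Isg20. These correlations describe 23 arrays whose genes share array-wide effects. The 10 other genes most like the member mean had r from 0.78 to 0.88. They were Gbp7 (0.88), Irgm2 (0.85), Mitd1 (0.84), Dtx3l (0.82), Cmpk2 (0.82), Parp12 (0.82), Samd9l (0.81), Ddx60 (0.79), Ap4s1 (0.79) and Zfr (0.78). Of these, Gbp7, Irgm2, Cmpk2, Parp12, Samd9l and Ddx60 stood in a second list of interferon-stimulated genes. The median r of all non-members with the member mean was -0.02.

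The members were then set against the degree of fat cell differentiation among inguinal clones. In a limma regression on the mean of the adipocyte markers, 0 of 39 members had a positive slope that passed (6.58% of all genes), and 0 had an unadjusted p under 0.05 in that direction. In the other direction 1 member passed with a negative slope (4.87% of all genes), and 7 had an unadjusted p under 0.05. That gene, Xaf1, fell by 0.29 per unit of the marker mean (adjusted p = 0.00219). Against Ucp1, 0 members passed with a positive slope (1.37% of all genes) and 0 with a negative one (0.11%). At an unadjusted p under 0.05 these counts were 0 and 2. The share of all genes at that unadjusted level was not counted for either slope, so nothing is read from the unadjusted counts. The member mean had r = -0.25 with the adipocyte marker mean and r = -0.21 with Ucp1 over the 23 clones, given as descriptions.

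Few genes upstream of the members passed the depot test. Of 5 measured interferon receptor subunits 1 passed, and 2 had an unadjusted limma p under 0.05, Ifngr1 and Ifnar1. Ifnar1 differed by -0.74 and did not pass (limma adjusted p = 0.0645), and by -0.70 without BAT6. Ifngr1, the ligand-binding chain for interferon gamma, was 10.29 in BAT1, 10.67 in BAT6 and 10.25 in BAT8, against 8.68 to 10.00 in inguinal clones (median 9.45). The depots did not overlap, and the difference was 0.96 ± 0.21 (SE; adjusted p = 0.00354, exact p = 0.000385). Without BAT6 it was 0.82 and missed the threshold (adjusted p = 0.0634). Of 10 measured sensors and adaptors 1 was lower, Tlr3, a receptor for double-stranded RNA, at 7.27 in BAT1, 6.13 in BAT6 and 6.62 in BAT8 against 6.59 to 8.30 (median 7.39). Its difference was -0.80 (limma adjusted p = 0.0454), but the exact test did not call it (adjusted p = 0.065), and without BAT6 it was -0.52 (limma adjusted p = 0.37). BAT6 alone was below its range. Over all genes 5.64% were lower and 4.55% higher. At an unadjusted limma p under 0.05, in either direction, stood 5 of the 10 sensors and adaptors. The share of all genes at that unadjusted level was not counted.

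Among 8 receptor kinases and factors 0 passed, with 2 at an unadjusted limma p under 0.05, and among 5 negative regulators 0 passed at either level. The exact test called 0 in both lists. Below the inguinal range in BAT6 (11% of all genes) lay 4 of 10 sensors and adaptors and 2 of 5 negative regulators. The 8 receptor kinases and factors held 1 such gene and the 5 receptor subunits 0. In BAT8 (7.65%) the sensors and adaptors held 1, and in BAT1 (7.35%) the kinases and factors held 1, with 0 in the other upstream lists. Of the interferon genes themselves 2 were measured, Ifna1 and Ifnb1, and 0 passed, with 0 at an unadjusted p under 0.05 and 0 by the exact test. A second list held 54 measured interferon-stimulated genes, none of them a member. Of these, 11 were lower (5.64% of all genes) and 0 were higher (4.55%), with a median difference of -0.53. An unadjusted limma p under 0.05 was found for 26 of the 54, with 0 of them higher. The exact test called 6 of the 54, all lower (4.58% of all genes). Without BAT6 limma called 1 lower (1.87%), with a median of -0.23. In the second list 35 genes were below the inguinal range in BAT6 (11% of all genes), 14 in BAT8 (7.65%) and 3 in BAT1 (7.35%).

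**Figure D4:**
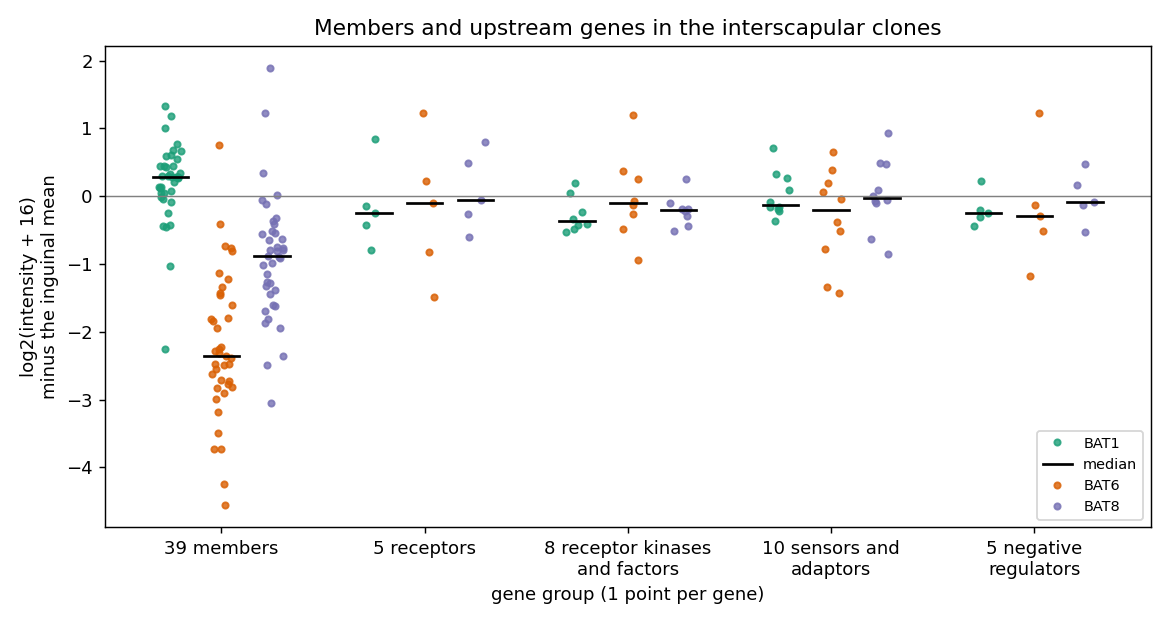
Difference from the inguinal mean in log2(intensity + 16) for the 39 members and for measured genes of 4 upstream lists, 1 point per gene and clone, with the median of each column as a black line. The members of BAT6 have a median of -2.36 and those of BAT8 of -0.88, whereas the medians of the upstream lists lie nearer to 0, with points on both sides.

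Markers of other cell types were compared in the same clones. Of 7 measured leukocyte markers 1 changed, Cd68, named after its values were seen, which was 2.12 higher in interscapular clones (adjusted p = 0.00277), and 2.00 higher without BAT6 (adjusted p = 0.0364). It was 8.30 in BAT1, 9.74 in BAT6 and 10.48 in BAT8 against 6.36 to 9.43 in inguinal clones. The mean of the 7 markers was 7.81 in BAT1, 7.68 in BAT6 and 7.56 in BAT8 and ran from 6.49 to 7.46 in inguinal clones. Of the 14 adipocyte markers 0 passed the depot test, 4 had an unadjusted limma p under 0.05, and the exact test called 0. Since RNA came from whole cultures, fewer cells of a kind and less RNA per cell cannot be told apart.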

How the data were processed

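The authors deposited 1 linear intensity per probe set and array, and per the labels' protocols biotinylated cRNA from column-purified total RNA was hybridised. Probe summary and scaling are not given in the sources used here. Deposited experiment files gave scanner, chip lot, fluidics station and scan session as batches. Of 45101 probe sets, 34945 carried 1 gene symbol in the platform annotation, 932 several, 9160 none and 64 were controls. Only those with 1 symbol were used, and 34741 matched RefSeq (GRCm38.p6).

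Values were taken as log2(intensity + 16) without further scaling, with the brightest probe set per gene. A gene was kept if it exceeded its array's median in at least 3 arrays. Depots (3 against 23 clones) and slopes among 23 inguinal clones were fitted with limma 3.58.1 (R 4.3.3), two-sided, with Benjamini-Hochberg adjustment over 12741 genes at 0.05. The exact permutation test was two-sided. Range counts carry no test. On simulated arrays of 12741 genes, 75% of planted depot differences of 1 and 94% of those of 2 were recovered, with 3 false calls. Genes were drawn independently, and both depots with each gene's inguinal SD. These rates therefore do not apply to genes with a wider interscapular spread, as most members have. The slope fit recovered 87% of slopes of 0.5 and 100% of slopes of 1, with 11 false calls. The most alike arrays had r = 0.987, so none was counted as a copy. Figures were drawn with matplotlib 3.10.9 (Python 3.11.15).

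The members and lists were chosen with earlier results of these data known. Full values are given for members passing a test, the 6 with the largest inguinal SD and the highest of each role, with upstream genes that passed and the 10 genes most like the member mean. The number of arrays limits precision, and depth does not apply. Alternatives changed scaling, pseudocount (1 or 64), filter, probe set rule, batch, covariates, weights and single clones.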

Additional observations from a re-analysis of the deposited data

How the results depend on the processing

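Over 25 alternatives, Trim25 kept its call in all 25 and Sp100 in 23, while Oasl2 kept it in 22, Isg20 in 21, Bst2 and Rtp4 in 19, Gbp3 in 18 and the other 7 in 14 to 17. The count of lower members was 13, where 719 of all 12741 genes were lower. It was 3 with fluidics station as a block (275 of all genes). With the adipocyte marker mean as a covariate it was 7 (383 of all genes), and by the exact permutation test 4 (583). Single batches with 2 interscapular clones gave 2 in session 1 (310 of all genes) and 3 on scanner 2 (336). Leaving out 1 interscapular clone gave 2 without BAT6 (238 of all genes) to 27 without BAT1 (473). The count of higher members, 1, was 2 in session 1 (240 of all genes) and 0 on scanner 2 (308). It was 0 without BAT8 (320 of all genes) and 1 without BAT6 (202) or BAT1 (410). The median difference of -1.04 was -0.21 within session 1, -2.46 within session 2 and -0.74 within scanner 1. It was -1.63 (without BAT1) to -0.28 (without BAT6). Members with a negative adipocyte slope numbered 2 with quantile scaling, 2 without A3 and A5 and 0 with the mean of probe sets. Without A3 and A5, 4 members of BAT1, 1 of BAT6 and 2 of BAT8 lay above the inguinal range, because the range is narrower. Over all genes, the 719 lower and 580 higher calls were 275 and 347 with fluidics station as a block and 238 and 202 without BAT6. The median difference of members and the differences of members called over all clones kept their sign in every alternative. Oasl1, not called over all clones, was called higher within session 1. In session 2 it was lower, at 5.73 in BAT6 against 7.93 to 8.20 in the 3 inguinal clones. Session 2 holds 1 interscapular clone, as does scanner 1, so there that clone is assumed to vary like the inguinal ones. Beyond these the causes were not tested. The labels pair no clones. Of 22 dimmer probe sets of members, 21 had the sign of the brightest.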
